A study of Mus musculus with 6 samples.

Results

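Platelet-derived growth factors (PDGFs) are dimeric mitogens for mesenchymal cells, and the genes described here are the 6 that encode the family: the ligand genes Pdgfa, Pdgfb, Pdgfc and Pdgfd and the receptor genes Pdgfra and Pdgfrb. They were chosen by gene symbol, and all 6 were found among the 23842 genes of the count table, each with a single row. The table came from total RNA of cultured embryonic fibroblasts, connective tissue cells taken from mouse embryos, of strain C57BL/6. The 3 libraries labelled with the genotype NGLY1-/- (called knockout below) were compared with 3 libraries labelled WT (wild type). The knockout libraries are titled PK MEF, and the labels do not explain PK. NGLY1 is the cytosolic enzyme that strips N-linked glycans from glycoproteins. All cells were untreated and grown in high-glucose medium with serum. The labels give neither the deleted part of the gene nor the age of the embryos, and do not say whether libraries of a group came from separate embryos or cultures. The p-values therefore reflect only how far these libraries differ, which may be technical variation.

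As background, PDGF-A and PDGF-B are cut by furin-like proteases inside the cell, whereas PDGF-C and PDGF-D carry a CUB domain that extracellular proteases remove to release the active growth factor. The ligand dimers bind and pair the receptor tyrosine kinases PDGFR-alpha and PDGFR-beta. PDGF-A binds PDGFR-alpha, PDGF-C acts mainly through it, PDGF-D acts mainly through PDGFR-beta, and PDGF-B binds either receptor. In embryonic mesenchyme PDGFR-alpha marks broad fibroblast progenitors and PDGFR-beta is best known on mural cells of vessels, and cultured fibroblasts commonly carry both. Serum itself contains PDGF.

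In the knockout libraries the ligand genes split: Pdgfa and Pdgfc were 1.56-fold and 1.60-fold higher, while Pdgfb and Pdgfd were 2.45-fold and 3.32-fold lower. The split is not a clean division by receptor, as PDGF-B binds PDGFR-alpha as well as PDGFR-beta. The receptor genes Pdgfra and Pdgfrb were 1.96-fold and 1.71-fold lower. All 6 genes passed the low-count filter and a false discovery rate of 0.05 in edgeR's quasi-likelihood test, 2 higher and 4 lower. Of the 15039 genes tested, 60.9% passed that threshold, 30.7% higher and 30.2% lower, so a call on a single gene is near what the whole table gives. The size of the change was also ordinary for these data: 14.5% of the tested genes changed by more than Pdgfd, the most changed of the 6, and 47% by more than Pdgfa, the least changed. Levels are given below as CPM, counts scaled to the library size after correction with the trimmed mean of M values (TMM). In bulk RNA, fewer cells that make a transcript and less transcript per cell cannot be told apart.

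Depth was 27323577 to 37841558 counts per library. Ngly1 itself stood at 14.6 ± 3.11 CPM in the knockout and 14.6 ± 2.94 CPM in the wild-type libraries (SD, n = 3 each; adjusted p = 0.99 in edgeR's test), so the whole-gene count gives no check of the genotype. Directions rest on the labels alone. Wild-type replicate 3, the shallowest library, stood apart from the other two: 58.9% of the tested genes had this library farthest from the wild-type median, as did 5 of the 6 PDGF genes, all but Pdgfb. Of 10 fibroblast markers, Col1a1, Col1a2, Col3a1, Vim and Fn1 each averaged at least 267 CPM in both groups, whereas Lum and Fap were at or below 0.042 CPM on average and were not tested. Of the 8 fibroblast markers tested, 2 were higher and 4 lower in the knockout libraries (75% called, against 60.9% over all tested genes). Markers of 4 other cell types were low. Summed levels ran from 2.47 to 3.47 CPM per library for 5 endothelial markers, from 2.09 to 3.71 CPM for 5 macrophage markers, from 3.35 to 6.46 CPM for 3 megakaryocyte markers and from 0.701 to 2.62 CPM for 5 epithelial markers.

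RefSeq promoters (build GRCm38.p6) were examined for only 4 of the 6 genes. They are shown because the CUB-domain ligand genes Pdgfc and Pdgfd moved in opposite directions, as did Pdgfa and its receptor gene Pdgfra. Each runs from 250 bases before to 50 after the RefSeq promoter's start, 5′ to 3′ on the gene's strand. That start need not be the outer end of the gene: the Pdgfa and Pdgfra windows lie inside the gene spans given below. Capitals mark matches to any of the motifs searched on both strands. Those motifs were the TATA box (TATAAA), the SP1 site (GGGCGG), the CCAAT box, the AP-1 site (TGANTCA) and the CArG box bound by serum response factor.
Pdgfa, chr5:138994895-138995194, minus strand, the start farther upstream of a pair: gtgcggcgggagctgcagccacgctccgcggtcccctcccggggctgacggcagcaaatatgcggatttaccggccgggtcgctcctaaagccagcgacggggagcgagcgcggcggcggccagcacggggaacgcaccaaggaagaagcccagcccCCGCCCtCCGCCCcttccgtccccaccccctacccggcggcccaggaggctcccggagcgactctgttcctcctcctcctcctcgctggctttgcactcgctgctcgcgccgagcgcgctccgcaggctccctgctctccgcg
Pdgfc, chr3:81036166-81036465, plus strand: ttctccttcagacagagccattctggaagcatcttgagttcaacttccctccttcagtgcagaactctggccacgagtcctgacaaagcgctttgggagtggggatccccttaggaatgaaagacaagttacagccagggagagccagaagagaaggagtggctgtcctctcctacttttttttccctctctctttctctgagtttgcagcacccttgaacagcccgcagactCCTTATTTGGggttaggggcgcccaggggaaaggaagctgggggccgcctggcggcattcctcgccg
Pdgfd, chr9:6168236-6168535, plus strand: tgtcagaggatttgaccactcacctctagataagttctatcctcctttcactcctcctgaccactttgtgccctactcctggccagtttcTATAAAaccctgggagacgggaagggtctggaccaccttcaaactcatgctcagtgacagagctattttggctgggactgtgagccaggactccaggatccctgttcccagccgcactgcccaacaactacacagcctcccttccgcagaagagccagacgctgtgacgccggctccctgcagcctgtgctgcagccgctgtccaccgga
Pdgfra, chr5:75152001-75152300, plus strand: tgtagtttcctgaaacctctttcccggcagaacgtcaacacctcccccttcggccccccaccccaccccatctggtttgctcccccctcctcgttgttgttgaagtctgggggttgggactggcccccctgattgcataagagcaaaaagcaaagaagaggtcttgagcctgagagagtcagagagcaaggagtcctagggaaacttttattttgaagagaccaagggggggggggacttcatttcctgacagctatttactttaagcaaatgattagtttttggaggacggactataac
The Pdgfa window was rich in CpG, with 37 CpG sites against a median of 7 over 32851 promoters of the same length, and held GGGCGG at -93 to -88 and at -86 to -81 on the opposite strand, a motif found in 35.7% of those promoters. The Pdgfc window held a CArG box at -17 to -8, found in 1.63% of promoters. The Pdgfd window held TATAAA at -160 to -155, found in 13.6% of promoters. The start used here lies inside the Pdgfd span given below, and this match lies before the outer start of that span, chr9:6168363. The nearest GENCODE start lies 98 bases from the RefSeq start used here. The Pdgfra window, with 5 CpG sites, held none of these 5 motifs, and the nearest GENCODE start lies 41 bases from the start used. A match is a description of the letters and was not tied to the counts.

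Pdgfa (gene ID 18590; chr5:138976014-139000792) had 12.9, 15.1 and 12.7 CPM in knockout replicates 1, 2 and 3 and 8.36, 8.53 and 9.29 CPM in the wild-type replicates. Every knockout library was above every wild-type library, as was true in one direction or the other for 67.3% of all tested genes. The log2 fold change was 0.64 with a standard error of 0.13 (adjusted p = 0.00223, edgeR's quasi-likelihood test). These values rest on 254 to 496 counts per library.

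Pdgfc (gene ID 54635; chr3:81036416-81214040) was the best counted of the ligand genes that rose. It had 55.0, 46.6 and 56.9 CPM in the knockout libraries and 30.2, 30.7 and 38.4 CPM in the wild-type libraries. The groups did not overlap, and the highest wild-type value was that of replicate 3. The log2 fold change was 0.68 (standard error 0.13, adjusted p = 0.00108, edgeR).

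Pdgfb (gene ID 18591; chr15:79995865-80024614), the mouse counterpart of the primate gene behind the retroviral oncogene v-sis, was the least abundant member. It had 5.46, 3.23 and 3.86 CPM in the knockout libraries and 8.97, 11.6 and 10.2 CPM in the wild-type libraries. The knockout libraries were all lower, and knockout replicate 1 was the highest of them. The log2 fold change was -1.29 (standard error 0.21, adjusted p = 0.000482, edgeR), from 106 to 453 counts per library.

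Pdgfd (gene ID 71785; chr9:6168363-6534284) showed the widest separation. It had 19.3, 14.3 and 13.5 CPM in the knockout libraries against 54.4, 54.8 and 47.2 CPM in the wild-type libraries, from 470 to 2215 counts per library. The lowest wild-type library was more than double the highest knockout library. The log2 fold change was -1.73 (standard error 0.15, adjusted p = 6.48e-06, edgeR).

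Pdgfra (gene ID 18595; chr5:75151322-75198206) had 21.4, 21.6 and 20.2 CPM in the knockout libraries and 55.3, 45.4 and 22.8 CPM in the wild-type libraries. The knockout libraries lay close together, whereas the wild-type libraries were spread, with replicate 3 just above the highest knockout library. The log2 fold change was -0.97 with a standard error of 0.27 and a 95% interval of -1.60 to -0.35 (adjusted p = 0.0139, edgeR), the widest interval of the 6 genes. When wild-type replicate 3 was left out it was -1.24 (adjusted p = 1.34e-08), and with no filter on low counts the call was lost (log2 fold change -0.95, adjusted p = 0.117).

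Pdgfrb (gene ID 18596; chr18:61045127-61085067) was the most abundant member, above 88.4% of the tested genes in mean CPM. It had 95.6, 100.1 and 95.8 CPM in the knockout libraries and 188.9, 174.6 and 135.8 CPM in the wild-type libraries. The groups did not overlap, and wild-type replicate 3 was again the lowest of its group. The log2 fold change was -0.78 (standard error 0.12, adjusted p = 0.000346, edgeR), and it was -0.89 with wild-type replicate 3 left out.

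**Figure D1:**
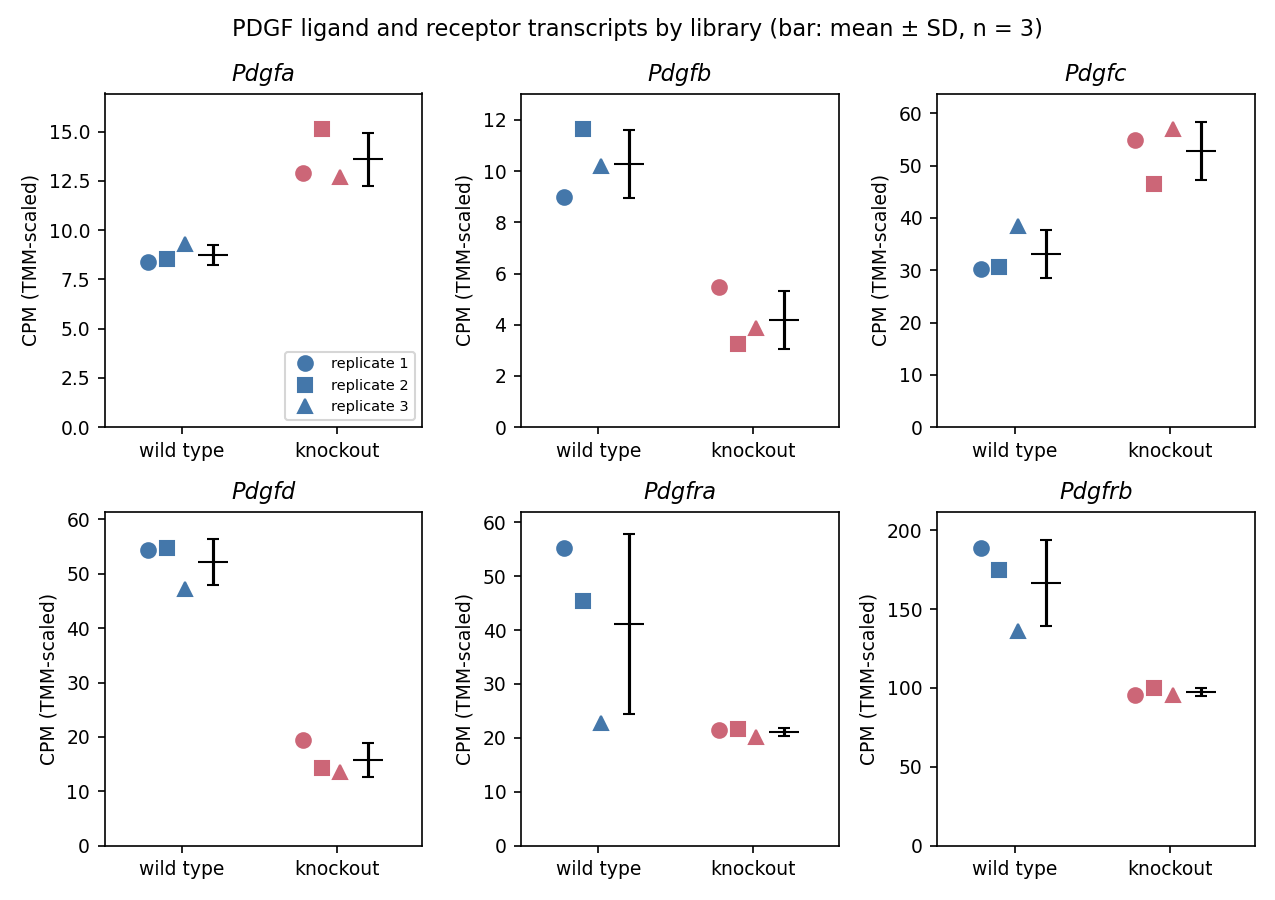
CPM of each PDGF gene by library (marker shape, replicate; bar, mean ± SD, n = 3 per group; vertical axes start at 0 and differ between panels). Pdgfa and Pdgfc were higher and the other 4 genes lower in every knockout library, and wild-type replicate 3 had 22.8 CPM of Pdgfra beside 55.3 and 45.4 CPM in its group.

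The direction of all 6 genes was the same in each of the 15 alternative scalings, filters, designs, tests and left-out libraries. The adjusted p rose above 0.05 for Pdgfra with no low-count filter and in no other case. Over these alternatives the log2 fold change ran from 0.53 to 0.75 for Pdgfa, from 0.56 to 0.81 for Pdgfc, from -1.52 to -1.12 for Pdgfb, from -1.89 to -1.61 for Pdgfd, from -1.24 to -0.70 for Pdgfra and from -0.90 to -0.68 for Pdgfrb.

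**Figure D2:**
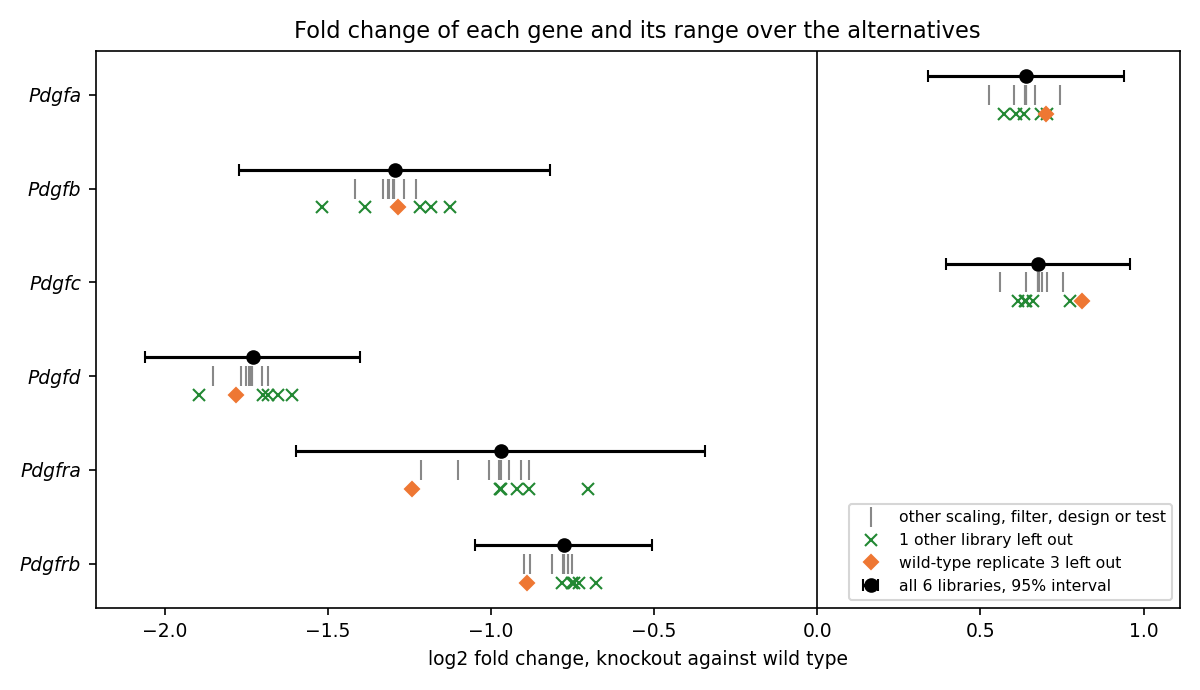
Log2 fold change of knockout against wild type for each gene: black points with 95% intervals from all 6 libraries, grey ticks from other scalings, filters, designs and tests, and coloured marks with 1 library left out. No mark crosses 0. Leaving out wild-type replicate 3 (diamonds) moved Pdgfra from -0.97 to -1.24.

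Levels of different genes can be compared only per length, so CPM was divided by the kilobases of annotated exon sequence of each gene. On this scale wild-type libraries held most Pdgfrb (30.4 ± 5.01 CPM per kb, SD, n = 3), then Pdgfd (16.5 ± 1.36), Pdgfc (6.50 ± 0.902), Pdgfra (4.11 ± 1.66), Pdgfa (2.80 ± 0.160) and Pdgfb (2.47 ± 0.320). The libraries of Pdgfra and Pdgfa overlapped, as did those of Pdgfa and Pdgfb, and the other neighbours in that order were separate. In the knockout libraries the order was Pdgfrb (17.7 ± 0.467 CPM per kb), Pdgfc (10.4 ± 1.08), Pdgfd (4.99, from 4.28 to 6.13), Pdgfa (4.35 ± 0.427), Pdgfra (2.10 ± 0.0762) and Pdgfb (1.01 ± 0.276). There Pdgfd and Pdgfa overlapped, and with the length of the longest transcript in place of all exons Pdgfa (6.59 CPM per kb) stood above Pdgfd (5.02).

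The make-up of the ligand transcripts differed between the groups. Per kilobase of exon, Pdgfd was 58.4 ± 4.26% of the 4 ligand transcripts in wild-type libraries and 23.9 ± 3.26% in knockout libraries (SD, n = 3 each), and Pdgfc was 23.0 ± 3.46% and 50.1 ± 3.97%. Pdgfa and Pdgfc together were 30.7, 30.3 and 37.7% of ligand transcripts in wild-type replicates 1, 2 and 3 and 66.7, 72.5 and 74.6% in the knockout replicates. With the longest transcript as the length, their mean shares were 40.4% and 77.1%. The summed ligand level was 28.3 ± 0.550 CPM per kb in wild-type and 20.7 ± 1.55 in knockout libraries. These composites over the chosen genes are given with no test.

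Both receptor genes fell. Their summed level was 34.5 ± 6.67 CPM per kb in wild-type and 19.8 ± 0.516 in knockout libraries (SD, n = 3 each). The ratio of Pdgfrb to Pdgfra per kilobase was 6.25, 7.04 and 10.9 in wild-type replicates 1, 2 and 3 and 8.19, 8.48 and 8.68 in the knockout replicates. The knockout ratios lay inside the wild-type range, whose upper end was replicate 3.

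**Figure D3:**
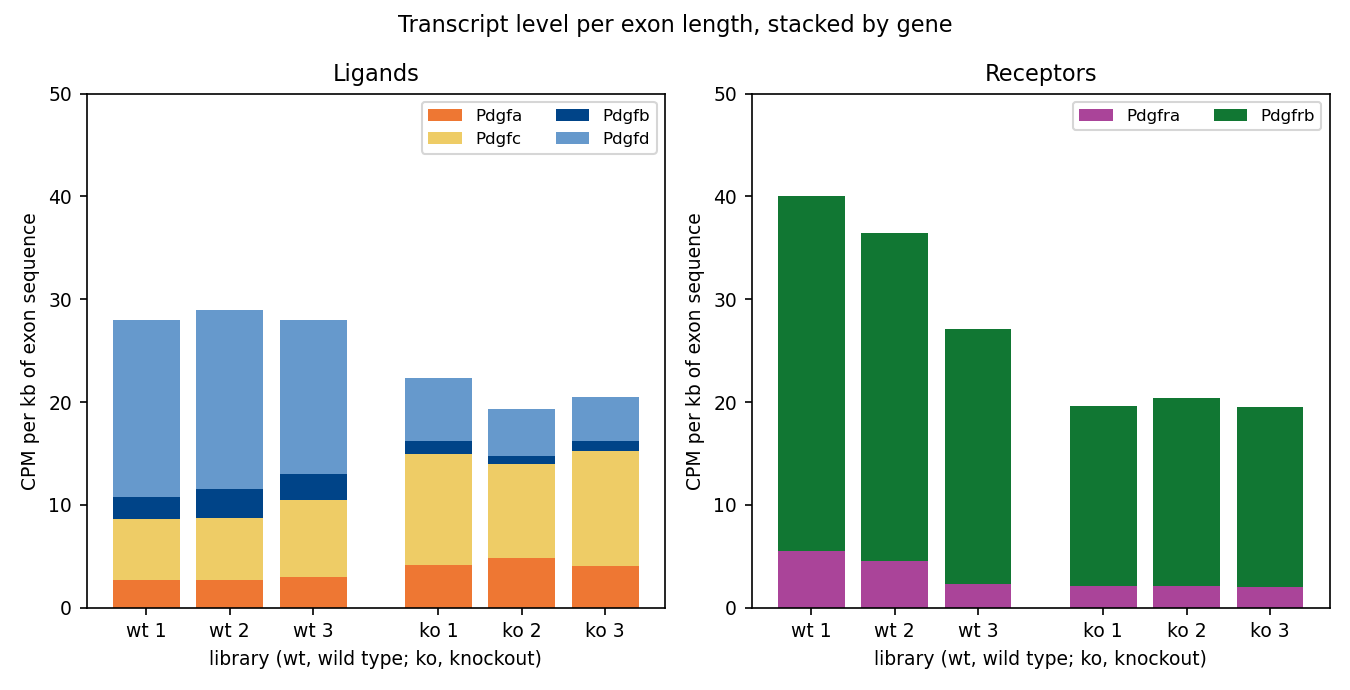
CPM per kb of exon sequence, stacked by gene, for the 4 ligand genes (left) and the 2 receptor genes (right) in each library. Pdgfd fills most of the wild-type ligand bars and Pdgfc about as much of the knockout ones as all the others together (50.1 ± 3.97%), and Pdgfrb dominates every receptor bar.

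Of 12 listed genes for proteins that process, bind or present the ligands, 10 were tested, 2 were higher and 3 lower (50% called, against 60.9% over all tested genes), with a median log2 fold change of -0.24 against -0.04 over all tested genes. Thbs1, encoding thrombospondin 1, a matrix protein that binds PDGF, was 8.21-fold lower (adjusted p = 4.90e-07, edgeR), with 209, 144 and 185 CPM in knockout and 1320, 1354 and 1740 CPM in wild-type libraries. The groups were far apart in this gene, whereas the endocytic coreceptor gene Lrp1 fell 1.44-fold, from 1423 ± 179 to 990 ± 109 CPM (SD, n = 3 each). Pcsk5, a furin-like convertase gene, had 0 counts over the knockout libraries and 40 over the wild-type libraries, at least 12.7-fold lower when the group's floor is set at 3 counts in all. Pcsk6, another convertase, was 2.47-fold higher at 2.71 ± 0.538 against 1.11 ± 0.440 CPM. Plau, encoding urokinase, which activates PDGF-D, was 1.30-fold higher (adjusted p = 0.0323, edgeR), and this call was lost without knockout replicate 1 or 3 or wild-type replicate 1 or 2 (adjusted p = 0.0546 to 0.108) and when scaled by library totals only (0.106). In those cases 1 listed gene was higher. Leaving out wild-type replicate 3 gave 5 lower genes. Plat, the tissue plasminogen activator that activates PDGF-C, did not pass (log2 fold change -0.20, adjusted p = 0.356), nor did Furin (-0.21, 0.528), Pcsk7 (-0.11, 0.337), the coreceptor gene Nrp1 (-0.37, 0.111) or Sparc (-0.26, 0.0519), whose matrix protein binds PDGF-B. St14, a protease that cleaves PDGF-D, had 0 counts in the knockout and 1 in the wild-type libraries, and Plg was not analysed here.

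Relatives of the PDGF family moved in both directions. Of 15 listed ligands and receptors of the VEGF, stem cell factor, CSF1 and FLT3 groups, with Pdgfrl, 12 were tested, 7 were higher and 4 lower, 91.7% called against 60.9% of all tested genes. The median log2 fold change was 0.88 against -0.04 over all tested genes. Vegfa, the main angiogenic ligand, rose 2.32-fold (101 ± 16.0 to 235 ± 18.4 CPM, SD, n = 3 each). Pgf, the placental growth factor gene, rose 5.43-fold to 15.5 ± 5.27 CPM and Flt3l, a haematopoietic cytokine gene, 3.51-fold to 5.02 ± 0.243 CPM. Vegfd, a lymphangiogenic ligand gene, fell 4.63-fold, from 21.7 ± 2.22 to 4.67 ± 0.692 CPM, and Vegfb fell 2.27-fold. Flt4, the VEGF-C and VEGF-D receptor gene, was 2.99-fold lower, from 23.0 ± 8.45 to 7.67 ± 0.448 CPM.

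Downstream of the receptors, genes for adaptors and kinases changed in both directions. Of 38 listed receptor effectors, 37 were tested, 8 were higher and 21 lower (78.4% called, against 60.9% over all tested genes). Over all tested genes, 30.7% were higher and 30.2% lower. The list median log2 fold change was -0.35, against -0.04 over all tested genes. Slc9a3r2 and Slc9a3r1, which encode the NHERF scaffolds that bind the PDGF receptor tail, were 3.61-fold and 2.24-fold lower, and the adaptor gene Grb10 was 2.07-fold lower. Slc9a3r2 had 8.67, 8.68 and 8.51 CPM in the knockout and 32.2, 33.1 and 28.0 CPM in the wild-type libraries. The Src-family kinase genes Fyn and Src went the other way: Fyn rose 3.31-fold, with 120, 113 and 134 CPM against 37.6, 36.5 and 36.3 CPM, and Src rose 1.88-fold. Sos2, a Ras exchange factor gene, rose 1.71-fold. Scaled by library totals only, which moves the median of all tested genes from -0.04 to -0.16, 5 effectors were higher and 25 lower.

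Among genes that dampen receptor signalling, 16 were listed and 15 tested, of which 5 were higher and 5 lower, with a median log2 fold change of 0.22. The called share, 66.7%, was near the 60.9% of all tested genes. Rasa1, the Ras GTPase-activating protein gene whose product docks on PDGFR-beta, rose 4.45-fold, with 406, 290 and 386 CPM in the knockout and 81.0, 84.0 and 78.2 CPM in the wild-type libraries. Its groups lay far apart. The adaptor gene Sh2b3 rose 1.68-fold and Ptpn2, a phosphatase gene whose product acts on PDGFR-beta, 1.37-fold. The suppressor gene Socs3 fell 1.72-fold and the endosomal sorting gene Hgs 1.48-fold. Leaving out wild-type replicate 3 gave 8 higher and 5 lower. Leaving out knockout replicate 1 or 2 gave 3 lower.

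Genes that fibroblasts switch on soon after growth factor or serum addition were mostly higher. Of 18 listed and tested, 15 were higher and 0 lower (83.3% called, against 60.9% over all tested genes). Over all tested genes, 30.7% were higher and 30.2% lower. The list median log2 fold change was 1.92, against -0.04 over all tested genes. Egr1, an early transcription factor gene, rose 12.2-fold, with 306, 253 and 372 CPM in the knockout and 28.7, 26.4 and 21.0 CPM in the wild-type libraries (adjusted p = 2.30e-07, edgeR). Ier2, another early response gene, stood at 117 ± 25.4 CPM in knockout and 20.3 ± 1.92 CPM in wild-type libraries (SD, n = 3 each), a rise of 5.79-fold. Cxcl1, a chemokine gene first known as a PDGF-induced transcript, rose from 0.0533 ± 0.0489 to 6.02 ± 1.60 CPM. Outside the naming rule, and picked with their values in view, Fosb (log2 fold change -0.17), Nr4a1 (-0.31) and Srf (0.04) did not pass. At an unadjusted p under 0.05 in edgeR's test, 0 of the 18 were lower. DESeq2 and limma-voom also called 0 lower, while scaling by library totals only called 1 lower. Many signals besides PDGF induce these genes.

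**Figure D4:**
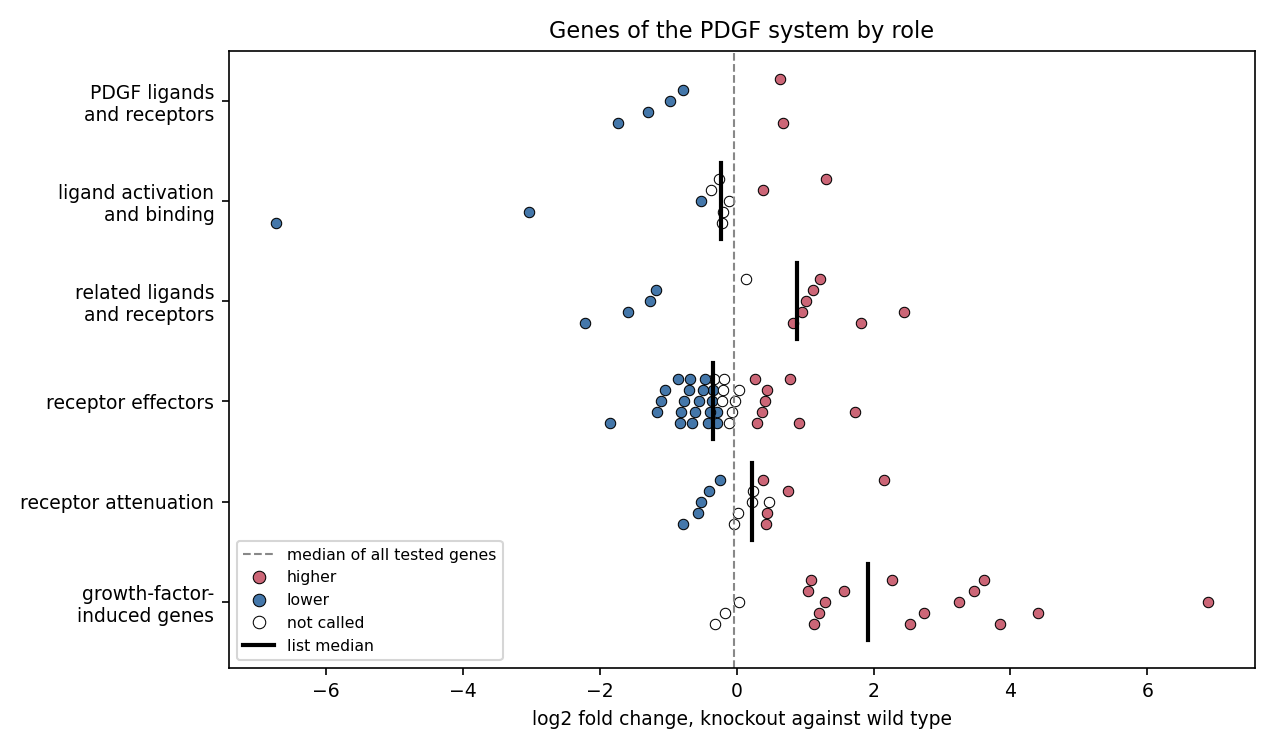
Log2 fold change of knockout against wild type for the 6 PDGF genes and for the tested genes of each role, coloured by the call at a false discovery rate of 0.05, with the list median as a bar and the median of all tested genes (-0.04) dashed. The growth-factor-induced genes centre on 1.92 and the receptor effectors on -0.35. The leftmost point is Pcsk5, with 0 counts over the knockout libraries, whose fitted value depends on the prior count and is no bound.

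Mural cells, the pericytes and smooth muscle of vessel walls, are a classical site of PDGFR-beta. Of 9 mural markers, 5 were tested and all 5, Cspg4, Acta2, Des, Tagln and Notch3, were higher in the knockout libraries, where 30.7% of all tested genes were higher and Pdgfrb was lower. Their list summed to 350 to 444 CPM in the knockout and 189 to 249 CPM in the wild-type libraries. The defining pericyte marker Rgs5 was at 0 in the wild-type and at most 0.0305 CPM in the knockout libraries, and Myh11 averaged 0.168 and 0.329 CPM. The part of any such cells in the receptor values was not tested. Of the oligodendrocyte precursor markers, a cell type known for PDGFR-alpha, only Cspg4 was in the analysed table.

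To describe its position, each PDGF gene was set beside the tested genes within 5 Mb. Whether neighbouring genes move together in these libraries was not tested. Pdgfd moved with its surroundings: of 21 genes near it on chromosome 9, 2 were higher and 12 lower, with a median log2 fold change of -0.84. Over the 789 tested genes of that chromosome other than Pdgfd, these 21 included, 116 were higher and 392 lower (median -0.43). The nearest tested neighbours of Pdgfd were Casp12, 795 kb away, and Dync2h1, 394 kb away. Casp12 had a log2 fold change of -1.04, and Dync2h1 was not called (0.20, adjusted p = 0.148, edgeR). Pdgfrb moved against the median of its surroundings: of 65 genes near it on chromosome 18, 38 were higher and 15 lower (median 0.67). Chromosome 18 leaned the same way, with 219 of its 414 other tested genes higher and 73 lower (median 0.45). The nearest tested neighbours of Pdgfrb were Slc6a7, a proline transporter gene (log2 fold change -3.51, under 1 CPM), and Hmgxb3 (0.95, 125.9 against 65.3 CPM). Outside the naming rule, the next tested genes on the Slc6a7 side, Camk2a and Arsi, were lower like Pdgfrb (-4.25 and -6.84). The next on the Hmgxb3 side, Slc26a2, was higher (0.49). Pdgfra also moved against its surroundings on chromosome 5, where 17 of 34 genes were higher and 4 lower (median 0.28), against 295 and 245 of 914 over the chromosome (median 0.03). The nearest tested genes on either side of Pdgfra were Chic2, 107 kb away, and the VEGF receptor gene Kdr, 735 kb away. Their log2 fold changes were 0.81 and 0.95. The part of position in these differences was not tested.

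Around Pdgfa, Pdgfb and Pdgfc the window medians were 0.02, 0.11 and 0.07, from 146, 186 and 29 genes. The nearest tested gene on each side is given here. Fam20c, a secreted kinase gene before Pdgfa, had a log2 fold change of 1.16 and Prkar1b, a protein kinase A subunit gene after it, one of -4.29. Beside Pdgfb, the Polycomb gene Cbx7 had one of -0.75 and the ribosomal protein gene Rpl3 one of 0.43. Beside Pdgfc, the glycine receptor gene Glrb, 123 kb away, had one of -1.33. The cathepsin gene Ctso, 719 kb away on the other side, had one of 0.03 (adjusted p = 0.953, edgeR).

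**Figure D5:**
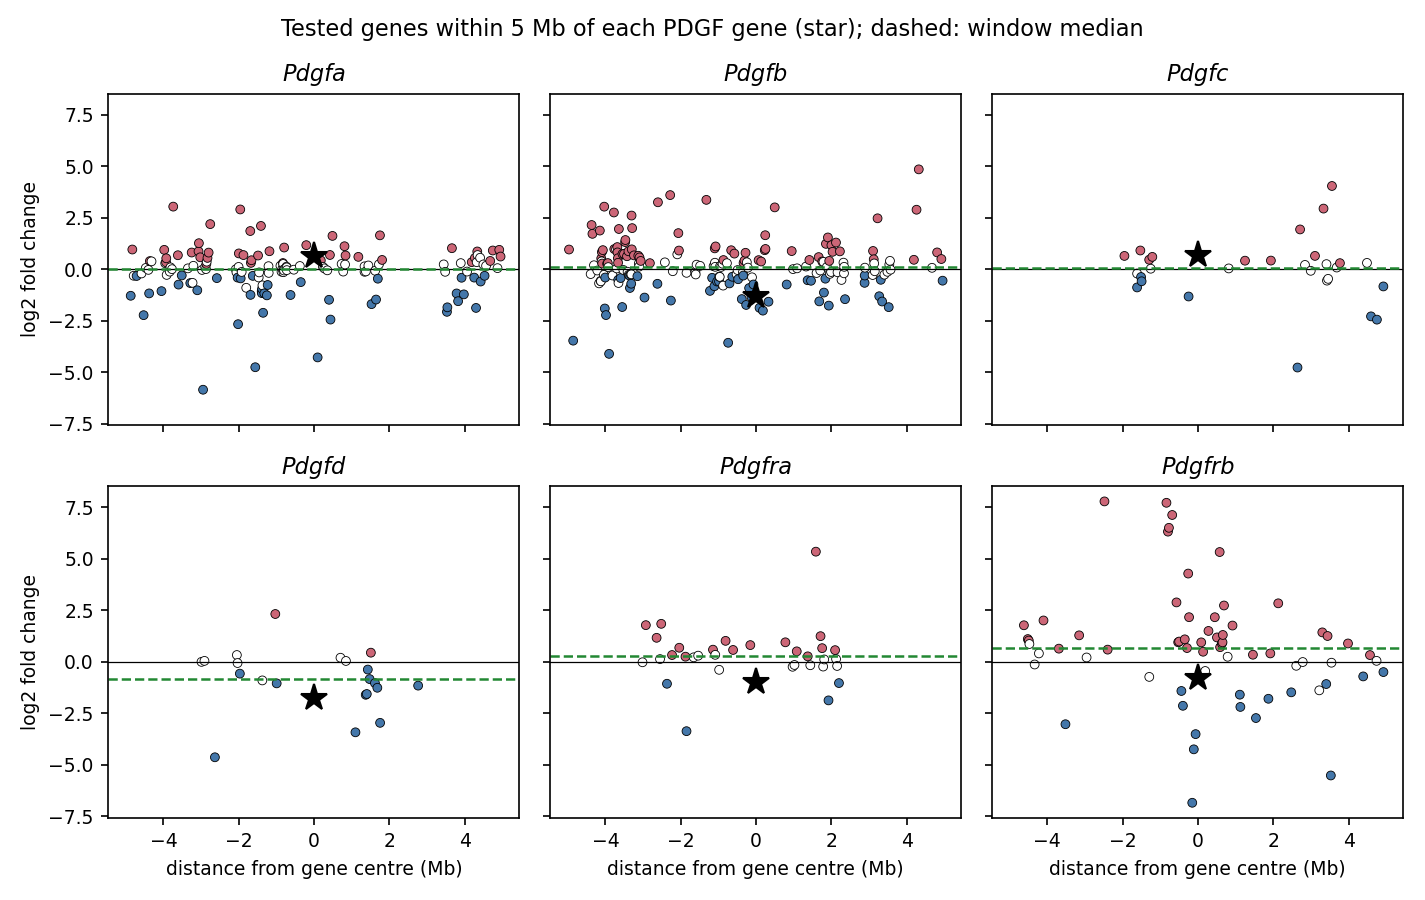
Log2 fold change of every tested gene within 5 Mb of each PDGF gene against its distance from that gene's centre (star, the PDGF gene; red and blue, higher and lower at a false discovery rate of 0.05; white, not called; green dashes, window median). The stars of Pdgfra and Pdgfrb lie below window medians of 0.28 and 0.67, and that of Pdgfd lies in a window with a median of -0.84.

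The genes most like each member over the 6 libraries were found by Pearson correlation of log2 CPM among 9867 protein-coding genes of at least 5 CPM. Because the libraries form 2 genotype clusters, such values are high for any gene that differs by genotype, and they are given as a description. Pdgfd was closest to Fkbp9 (r = 0.999), Hspa13 (0.999) and Tmem39a (0.998), and 150 genes exceeded 0.99. Pdgfrb was closest to Fam234a (0.999), Cdon (0.999) and Per3 (0.999), with 109 genes over 0.99. For Pdgfra, whose wild-type replicate 3 lay near the knockout level, 15 genes exceeded 0.99, among them Nbl1 and Ccser1 (0.998 and 0.997). Ccser1 showed the same spread, at 17.5 ± 7.24 CPM in wild-type and 8.64 ± 0.549 CPM in knockout libraries (SD, n = 3 each). Pdgfa was closest to Cdca7l, Pstk and Nelfcd (0.997, 0.997 and 0.996), Pdgfb to Capza1, Zfp605 and Canx (0.998, 0.996 and 0.994) and Pdgfc to Enc1, Mapk1ip1l and Top1 (0.998, 0.998 and 0.997). Pdgfa, Pdgfb and Pdgfc had 6, 12 and 42 genes over 0.99.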

How the data were processed

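The authors deposited raw counts, as whole numbers for each gene in 6 libraries, beside the gene ID, symbol, chromosome and type, per the file headers. RNA was taken up in Trizol and the library kit kept strand information, per the labels' protocols. Per the submitters' processing notes, STAR 2.5.1b and mm10 were used. Counting program, annotation and strand setting: not given in the sources used here. Overlapping genes could therefore have exchanged reads. The RefSeq genes that overlap a PDGF gene were Mir7213 (Pdgfb), Ddi1 (Pdgfd) and Mir7025 (Pdgfra), and none of them was in the count table. Columns were matched to samples by group and number.

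Genes were kept by filterByExpr (15039) and scaled by TMM. Genotype was tested two-sided in edgeR 4.0.16 (R 4.3.3) by a robust quasi-likelihood fit without other terms, with Benjamini-Hochberg adjustment over all tested genes. Standard errors are the log2 fold change divided by the root of the F statistic. Exon lengths came from GENCODE M21 and gene positions from RefSeq, both on GRCm38 (mm10), with a position for 97.3% of tested genes. Alternatives used DESeq2 1.42.0 and limma 3.58.1, other scalings and filters, the replicate number as a block, and left-out libraries. The code of the fit was run on simulated counts with a single fixed dispersion and few changed genes. That setting is simpler than these data and says nothing on their calls.

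The members and gene lists were chosen with earlier results of these data known. Named from each list were up to 3 higher and 3 lower genes with the smallest p among those called, and every gene of the list on ligand activation and binding. Named beside each member were its 3 most correlated genes and its nearest tested neighbours. Some genes that meet these rules are not reported here. The floor of 3 counts reflects counting error alone, as reads lacking molecular identifiers do not each stand for a molecule.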

Additional observations from a re-analysis of the deposited data

How the results depend on the processing

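Of 90 fold changes of the 6 PDGF genes under the alternatives, 89 kept their direction and side of the threshold. Pdgfra with no low-count filter kept its direction (log2 fold change -0.95) and lost its call (adjusted p = 0.117); the cause was not tested. With wild-type replicates 1, 2 and 3 left out in turn, Pdgfra stayed at an adjusted p of at most 0.0441, and with knockout replicates left out at most 0.0448. Scaled by library totals only, the genes for ligand activation and binding were higher for 1 and lower for 5, the receptor effectors were higher for 5, and 1 growth-factor-induced gene was lower. Without both libraries numbered 3, 5 genes for ligand activation and binding were lower and 8 genes for receptor attenuation higher. With 1 library left out, ligand activation and binding genes were higher for 1 to 2 and lower for 3 to 5, and receptor attenuation genes higher for 4 to 8 and lower for 3 to 5. The cause of these moves was not tested. The labels do not say whether the replicate numbers pair the samples. Deviations from the group means correlated at 0.10, 0.01 and 0.21 for libraries with the same number. The last of these was the highest of all pairs, while knockout replicate 1 correlated best with wild-type replicate 2 (0.15). With 3 libraries per group, these values cannot decide whether the numbers pair the samples. With the number as a block, 4690 genes were higher and 4563 lower, against 4621 and 4539, and log2 fold changes were 0.64 for Pdgfa, -1.31 for Pdgfb, 0.68 for Pdgfc, -1.74 for Pdgfd, -0.88 for Pdgfra and -0.76 for Pdgfrb, all still called. Pdgfb, with as few as 106 counts in a library, is the least precisely counted of the 6.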
